A study of Drosophila melanogaster and Nicrophorus vespilloides with 16 samples.

Results

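The 50 Osiris and Tweedle genes of Drosophila melanogaster were examined for trimethylation of lysine 4 of histone H3 (H3K4me3) in whole larvae. They were chosen by a rule on gene symbols, with earlier results of these data known. The rule took the protein-coding genes of a RefSeq gene table whose symbol starts with Osi and a digit (25 genes) or Twdl (25 genes). They came from 13922 protein-coding genes on 6 chromosome arms. The material was 4 biological replicates of the Oregon-R strain, a laboratory stock, each made of 30 pooled third-instar larvae; the labels name no altered genotype and no treatment. The work was set up to adapt ChIP-seq on a solid-state filter (Chromatrap) to insect tissue. Every larval replicate was fixed in 1% formaldehyde for 10 min, sonicated for 10 min and immunoprecipitated from 30 µg of chromatin with 1 antibody, so there is 1 condition and no contrast between conditions. The 4 fly input libraries and the 8 beetle samples were not analysed here.

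Osiris genes encode small insect-specific proteins with a signal peptide and a predicted transmembrane segment, and most of them sit side by side in 1 cluster that coincides with the dosage-sensitive Triplo-lethal locus. They are switched on in the epidermis and trachea while cuticle is being laid down, and Osi23 (gore-tex) is needed for the pores of olfactory bristles. Tweedle genes encode secreted structural proteins of the cuticle, and dominant mutations in TwdlD or in Tubby (Tb, also named TwdlA) give short, stout larvae and pupae. H3K4me3 is a histone mark deposited around the starts of transcribed genes, and whole larvae mix the cuticle-secreting tissues with fat body, gut, muscle, imaginal discs and brain.

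No Osiris or Tweedle gene carried an H3K4me3 summit. A summit is the 1 bp position of highest enrichment in a called peak, and a gene counted as marked if at least 3 of the 4 replicates had a summit no more than 1 kb from its first or last base. Of the 25 Osiris genes 0 were marked, and of the 25 Tweedle genes 0 were marked. The background over all 13922 protein-coding genes was 43.9% marked (6107 genes). With a summit in just 1 replicate accepted, the count for the 50 genes was again 0, beside a background of 50.1%. The count was 0 of 50 in each library taken alone, where the backgrounds in replicates 1 to 4 were 35.8%, 43.8%, 46.6% and 48.6% of all genes, a mean of 43.7% ± 5.63 (SD, n = 4). The values of all 4 libraries therefore coincided at 0 for these genes, although the lists differed in length, from 3518 summits in replicate 1 to 5313 in replicate 4. In a whole larva, few cells with the mark and little mark per cell cannot be told apart, and a list of called peaks holds nothing below the caller's threshold.

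Genes of similar length and genes of the same chromosome arms were marked at shares near the background. The 50 genes span 691 bp (TwdlZ) to 15537 bp (Osi17), with a median of 1323.5 bp against 2163 bp over all protein-coding genes. Among the 2934 protein-coding genes of 1071.5 to 1822.5 bp, the range of the middle members, 46.9% were marked. Arm 3R holds 43 of the 50 genes (24 Osiris and 19 Tweedle), and 45.5% of all its protein-coding genes were marked. The X holds 4 Tweedle genes against a background of 45.2%, 2L holds Osi21 and TwdlE against 41.1%, and 2R holds Twdlbeta against 44.6%.

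The distance from a gene to the closest summit was measured next, and it covers called peaks only. Taking the closest summit of any replicate, the median distance was 67.5 kb over the 50 genes, 73.2 kb for the Osiris genes and 41.6 kb for the Tweedle genes, where the median over all protein-coding genes was 749 bp. In replicates 1 to 4 the median over the 50 genes was 75063, 70068, 70005 and 68633 bp, and the median over all genes was 3982, 2088, 1432.5 and 987 bp. Both medians were shorter in the longer lists, and that of the Osiris and Tweedle genes spanned 6.43 kb. Of the 50 genes, 44 lay more than 10 kb from any summit (27.6% of all genes), 27 more than 50 kb (8.02% of all genes) and 5 more than 100 kb (1.93% of all genes). Exactly 25 of the 50 lay beyond 67.6 kb, the distance that 5% of all genes exceed, and 0 lay beyond 127 kb, the distance that 1% of all genes exceed. These 25 were 13 genes of 1 Osiris cluster and the 12 genes of 1 Tweedle cluster. Neighbours in a cluster measure to the same summits, so the counts in this paragraph are not of independent genes.

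**Figure D1:**
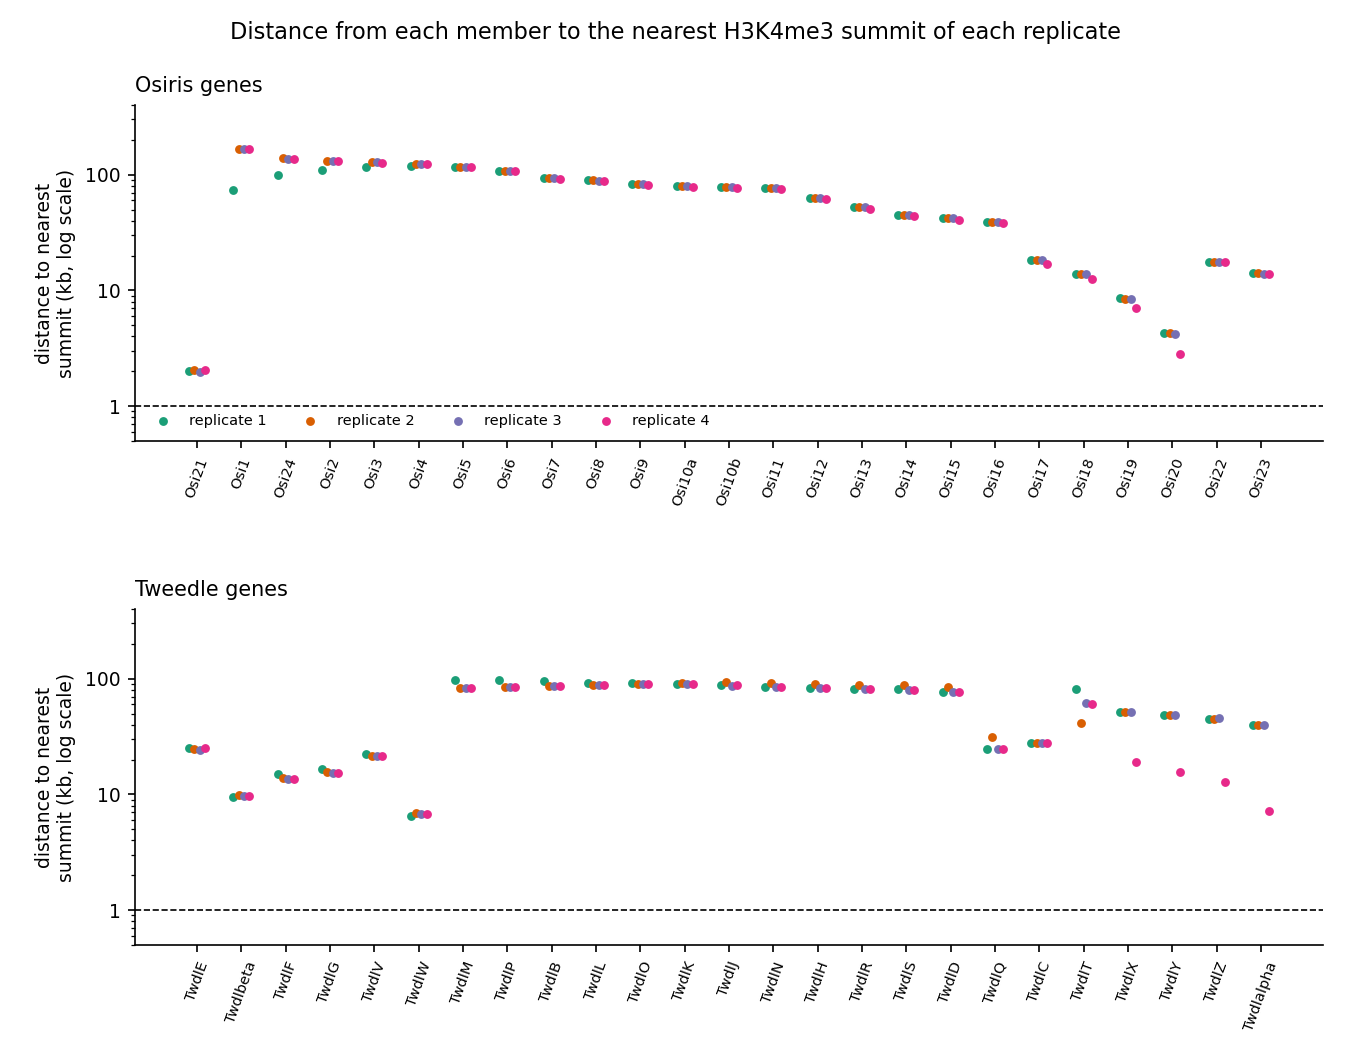
Distance in kb (log scale) from each Osiris gene (upper panel) and each Tweedle gene (lower panel), in order along the chromosomes, to the nearest summit of each of the 4 replicates, 1 colour per replicate, with a dashed line at the 1 kb window. Every point lies above the dashed line, and the closest is Osi21 at 1.96 kb; the points fall steadily from Osi4 towards Osi20 at the right end of its cluster.

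Osi21 on 2L (11284327 to 11285706) was the gene nearest to a summit. Its closest summits lay 2.03, 2.07, 1.96 and 2.04 kb away in replicates 1 to 4, which is outside the window in all 4 libraries and within a range of 106 bp. All 4 summits lie inside mre11, a DNA double-strand break repair gene that overlaps the end of Osi21 by 9 bp, and their scores stood at percentiles 27.5, 54.7, 85.05 and 62.5 of their libraries. On the other side of Osi21 the next summit was 199 to 213 kb away. That gap holds salr and salm, which encode zinc-finger transcription factors of imaginal disc patterning. Widening the window to 2 kb gave Osi21 a summit in 1 replicate, so that 1 of 50 genes had a summit in any replicate (background 55.1%) and 0 were marked (background 49.2%). At 5 kb, Osi21 and Osi20 were marked (background 59.4%), and they were also the only 2 of the 50 genes with a summit in any replicate (background 64.6%); of the 25 Tweedle genes 0 were marked.

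The 50 genes fall into 13 places in the genome: 4 clusters, each with at least 3 genes of 1 family no more than 50 kb apart, hold 41 of them, and 9 genes stand alone. Between the first and last base of these clusters 0 summits were found in any replicate. The gap between the summits on either side, here called the summit-free stretch, ran from 31.0 kb around Osi23 to 244 kb around the main Osiris cluster when the summits of all replicates were combined. The 13 places lie in 11 different stretches, which together cover 1116 kb and hold 145 whole protein-coding genes. A stretch holds no summit by definition, so only genes close to its borders could have one within 1 kb. The counts that follow are set by that. Of the 95 that are not Osiris or Tweedle genes, 90 had no summit within 1 kb in any replicate, 2 had one in 1 replicate (CG10298 and Septin4), and 3 at the edge of a stretch were marked through a summit just beyond it (CG15533, MP1 and CG6425).

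The main Osiris cluster on 3R (6173549 to 6341424, 168 kb) holds 22 of the 25 Osiris genes, in the order Osi1, Osi24, Osi2 to Osi9, Osi10a, Osi10b and Osi11 to Osi20. No summit of any replicate fell inside it. Its summit-free stretch was 245, 337, 337 and 336 kb in replicates 1 to 4, a mean of 314 ± 45.8 kb (SD, n = 4). Replicates 2 to 4 spanned 1.45 kb, and replicate 1 was shorter than each of them by at least 90.5 kb. The shorter value came from 1 summit of replicate 1, with a score of 3.77 at percentile 16.6 of that library, inside Gasp, a chitin-binding protein gene of the tracheal cuticle. Without replicate 1 the stretch over the combined summits was 336 kb, and with it 244 kb.

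**Figure D2:**
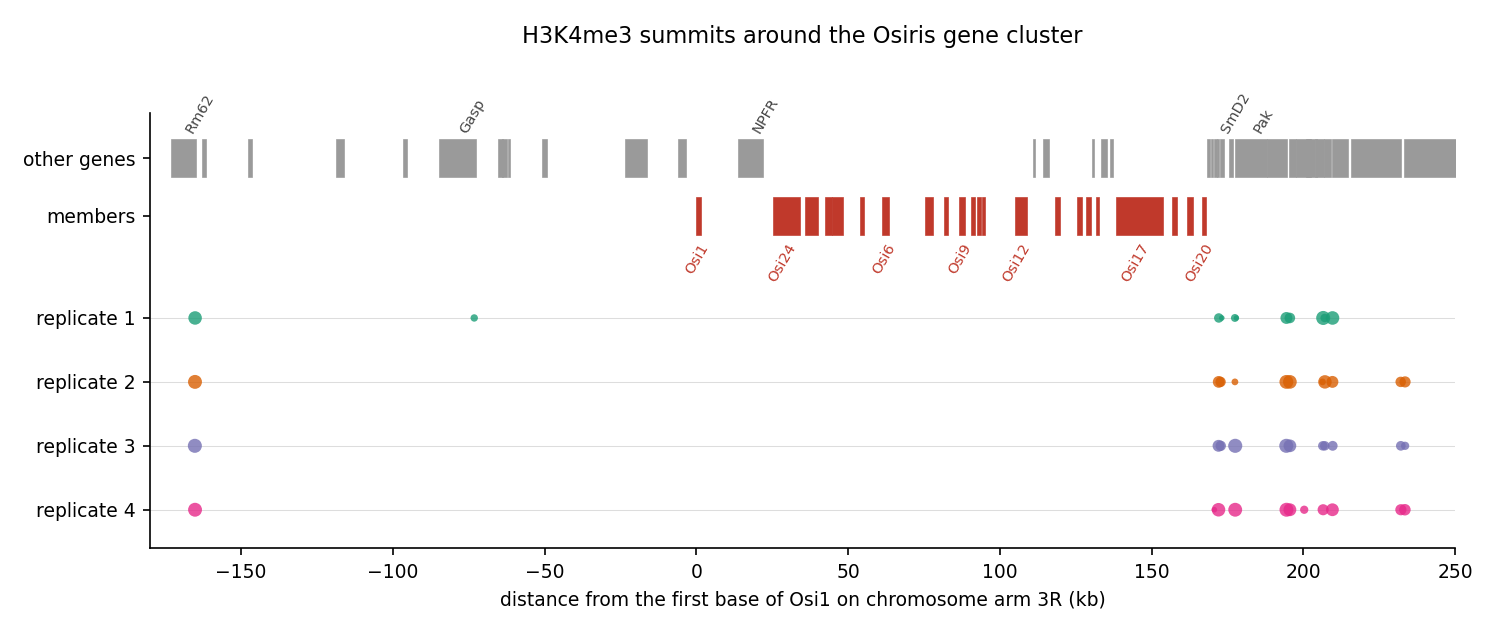
Protein-coding genes (upper bars, Osiris genes in red and other genes in grey) and H3K4me3 summits of the 4 replicates (points, larger with a higher score percentile in their own library) by distance in kb from the first base of Osi1. No point falls between Osi1 and Osi20, the left side is empty back to Rm62 except for 1 small point in Gasp in replicate 1, and points resume within 5 kb of Osi20 in all 4 replicates.

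The 2 sides of the Osiris cluster differed. On the left the nearest marked gene was Rm62, a DEAD-box RNA helicase gene 165 kb from Osi1, whose summits scored 10.2, 19.1, 37.9 and 53.4 in replicates 1 to 4. They stood at percentiles 90.1, 96.6, 98.7 and 96.4, high in every library (mean 95.5 ± 3.75, SD, n = 4). The 50 kb before Osi1 held 2 protein-coding genes and 0 summits in every replicate. On the right the nearest marked gene was CG17919, 2605 bp beyond Osi20. Its strongest summits lie in the neighbouring SmD2, a gene for a core protein of the spliceosome, with scores of 5.12, 10.6, 19.0 and 45.1 in replicates 1 to 4. Of the 15 protein-coding genes that lie whole in the 50 kb after Osi20, 10 were marked, and this window held 9, 8, 8 and 8 summits in replicates 1 to 4. All 4 libraries thus placed the right border of the gap between Osi20 and SmD2.

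With no summit inside the cluster, the distance of each of its genes was set by its position and by the border summits. Osi20, the last gene, lay 4291, 4270, 4207 and 2835 bp from the nearest summit in replicates 1 to 4, and the lower value of replicate 4 comes from a weak summit in CG17919 (score 3.74, percentile 3.14). Osi19 lay 8.52, 8.50, 8.43 and 7.06 kb away and Osi18 13.9, 13.9, 13.8 and 12.4 kb away. Osi12, near the middle, lay 63.2, 63.2, 63.1 and 61.8 kb away. By the closest summit of any replicate, Osi4 was the farthest of the 50 genes, at 118 kb. Its distances in replicates 1 to 4 were 118, 124, 124 and 122 kb, and in replicates 2 to 4 Osi1, Osi24, Osi2 and Osi3 lay farther. Osi1, at the left end, lay 73.2 kb from the Gasp summit in replicate 1 and 165 kb from the Rm62 summits in the other replicates. The 15 genes from Osi5 to Osi18 all measured to the same summits of the right border. Their range over the replicates, at most 1456 bp, therefore repeats the range of that 1 border.

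Genes of other families share the stretch, which holds no summit by definition. Between Osi1 and Osi20 lie 6 other protein-coding genes, namely NPFR (the receptor of neuropeptide F), CG15597, CG15594, CG46396, CG46026 and CG31560, and the pseudogene CR31562. None of the 6 had a summit within 1 kb in any replicate. The stretch between Gasp and CG17919 holds 36 whole protein-coding genes, the 22 Osiris genes and 14 others, among them the odorant-binding protein genes Obp83cd, Obp83ef and Obp83g and the vacuolar ATPase subunit gene Vha14-2. Only genes close to a border could have a summit within 1 kb. Of these 14, 0 were marked and 1, CG10298, had a summit in 1 replicate. Among the 18910 intervals between neighbouring summits of the combined replicates, this one ranked 56th by length and 4th, tied with 1 other, by the number of protein-coding genes it contains. The 56 intervals at least as long held a median of 15 protein-coding genes. Only 3 intervals held more, led by the interval over the histone gene cluster on 2L with 115. The stretch has 14.8 protein-coding genes per 100 kb, where 3R as a whole has 10.6.

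The 3 Osiris genes outside the cluster lay in shorter stretches, the longest being that of Osi21 (203 to 217 kb). Osi22 on 3R (13290629 to 13291846) lay 17.6, 17.7, 17.7 and 17.7 kb from its nearest summits in replicates 1 to 4, and its stretch was 37.7 to 38.0 kb long, from TBC1D5 to CG32473. Osi23 on 3R (30444076 to 30445046) lay 14046, 14080, 13978 and 13995 bp from its nearest summits, in CG2224, and its stretch was 31.0 to 31.1 kb long in the 4 replicates. The summits bordering Osi23 lie in CG2218 and CG2224, at percentiles 71.5 to 99.5 and 30.5 to 99.1 of the libraries. The stretch lengths of the 4 libraries spanned 314 bp at Osi22 and 96 bp at Osi23.

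The main Tweedle cluster on 3R (26619118 to 26641054) packs 12 genes into 21.9 kb, in the order TwdlM, TwdlP, TwdlB, TwdlL, TwdlO, TwdlK, TwdlJ, TwdlN, TwdlH, TwdlR, TwdlS and TwdlD, with 1 non-coding gene (lncRNA:CR46233) and no other protein-coding gene between them. The summit-free stretch around it was 266, 188, 182 and 182 kb in replicates 1 to 4, a mean of 204 ± 41.0 kb (SD, n = 4). Replicate 1 was again the one apart, here longer than the other 3. Each of the 12 genes lay at least 77.0 kb from the summits of every replicate. TwdlD, mutated in larvae with altered body shape, lay 77.2, 83.9, 77.0 and 77.1 kb away. TwdlK and TwdlO, near the middle of the stretch, lay 89.4 kb and 89.2 kb from the nearest summit of any replicate.

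The borders of this stretch were of unequal strength. On the left it ended in scrib, a gene for an epithelial cell polarity protein, with scores of 5.68, 6.05 and 16.7 in replicates 2 to 4 and no summit in replicate 1. These stood at percentiles 21.5, 11.3 and 29.7, so the left border was weak in the 3 libraries that had it. In replicate 1 the stretch ran on to CG5447, 166 kb from TwdlM. On the right it ended in Yif1, known in yeast for transport between the endoplasmic reticulum and the Golgi, with scores of 6.40, 40.0 and 36.6 in replicates 1, 3 and 4, at percentiles 56.7, 99.3 and 78.4. Replicate 2 had no summit there and its stretch ended in CG6420. The nearest marked gene on the right, CG6425, lies wholly within the stretch and was called through the Yif1 summits. In the 50 kb on either side of the cluster there were 0 summits in every replicate.

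The same stretch holds TwdlQ, which stands alone 51.5 kb beyond TwdlD and lay 24.6, 31.4, 24.5 and 24.6 kb from the nearest summits. It also holds Tb, which the symbol rule leaves out although RefSeq lists TwdlA as its synonym. Tb (3R, 26656440 to 26657531) lies within beat-VII, a gene of a family of axon guidance molecules, and its nearest summits were 60.7, 67.5, 60.6 and 60.6 kb away in replicates 1 to 4. Like the Tweedle genes on either side of it, Tb had no summit in any library. The other protein-coding genes of the stretch are beat-VII itself, amon, which encodes a proprotein convertase of neuropeptide processing, and CG6425. The stretch ranked 118th by length and 60th by protein-coding genes (17, of which 13 are Tweedle genes) among the 18910 intervals.

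**Figure D3:**
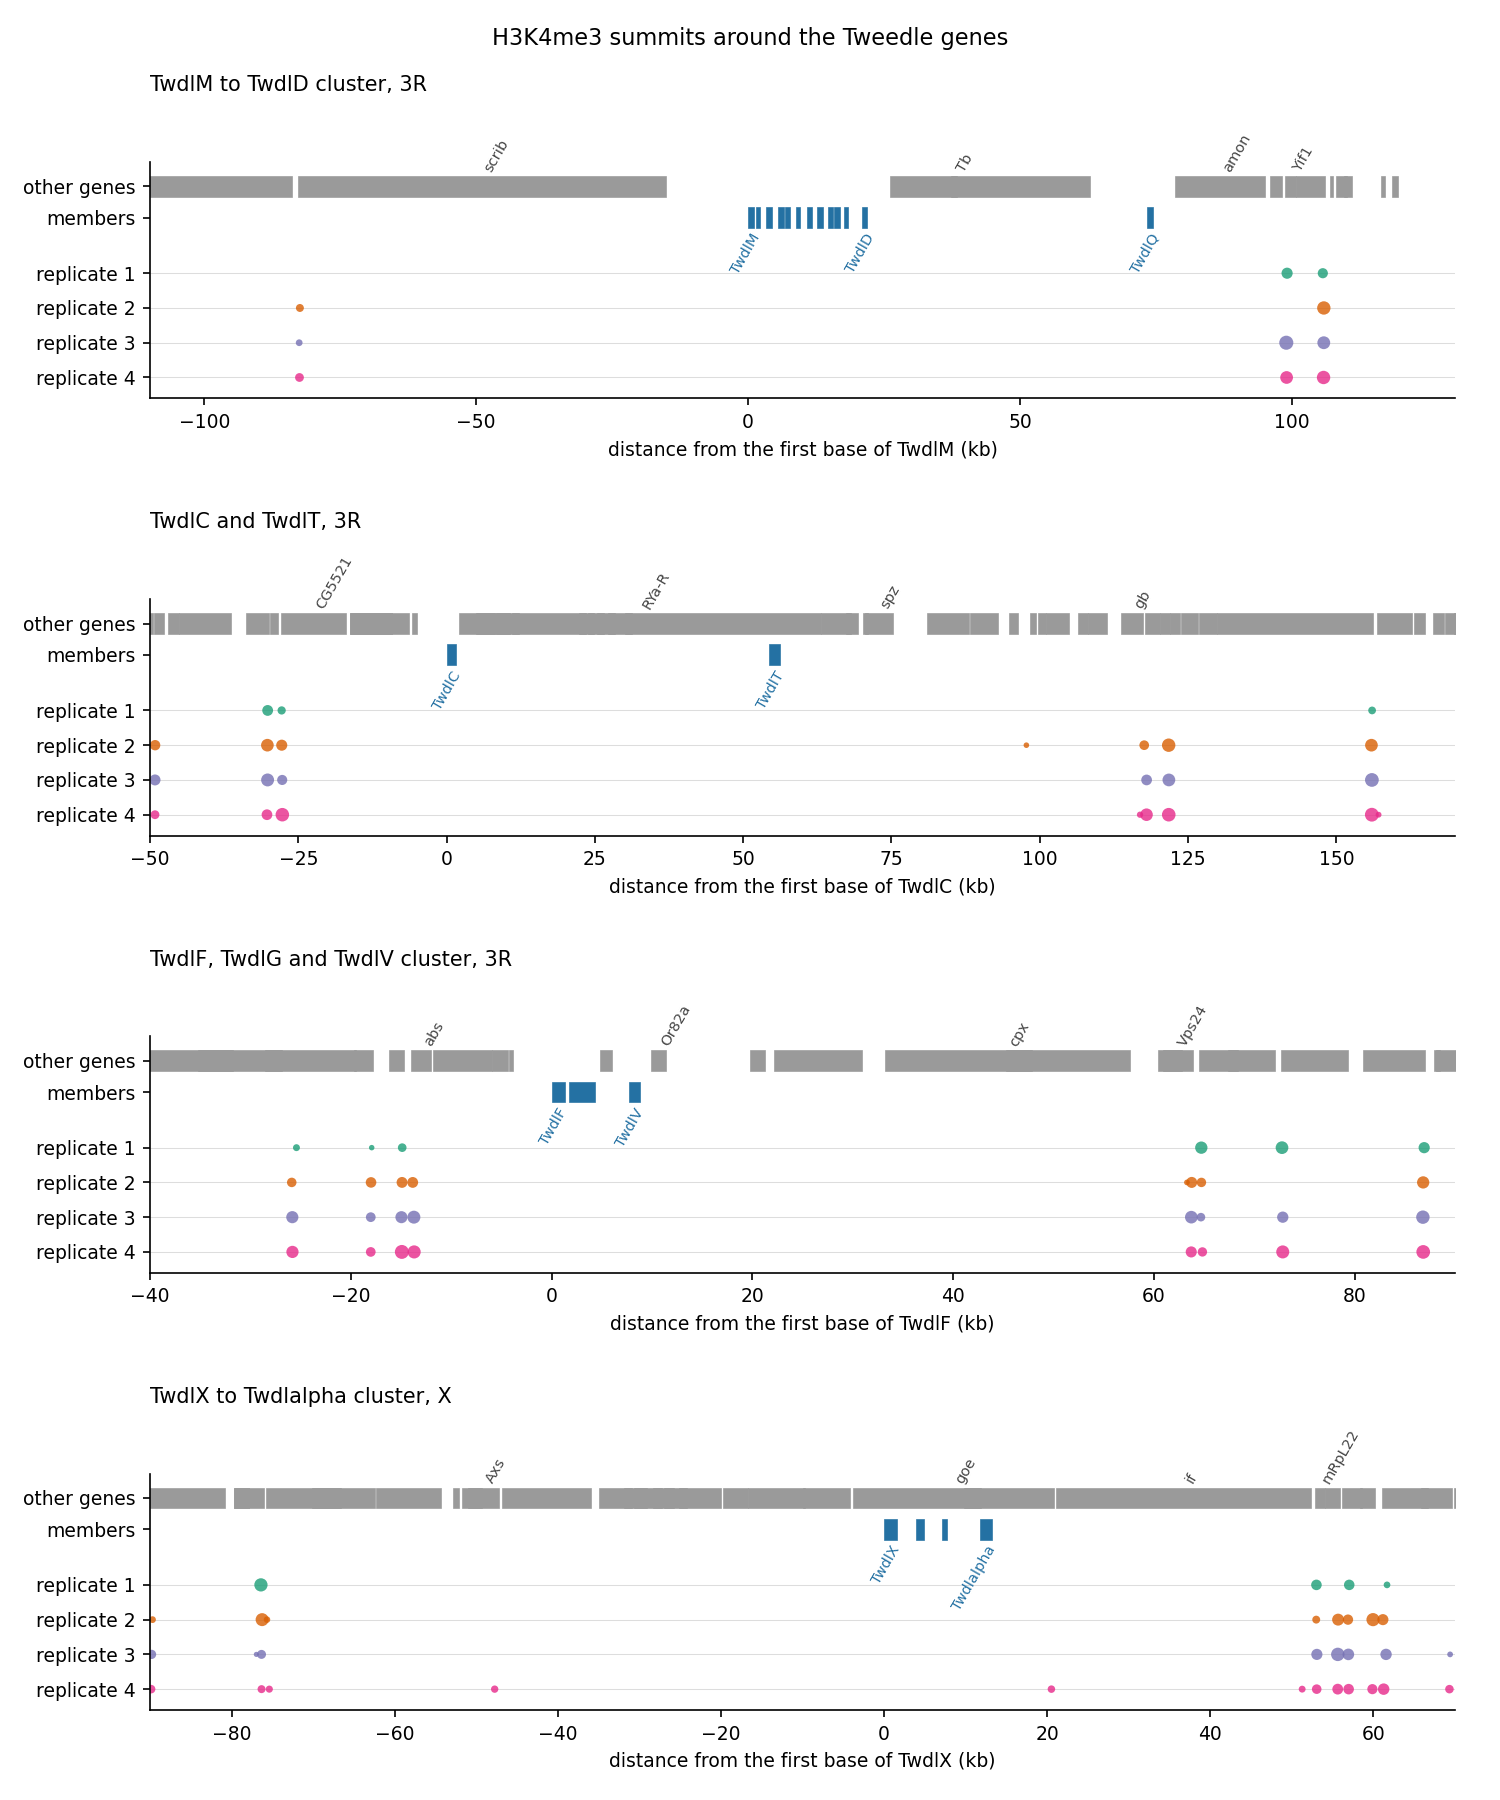
Protein-coding genes (upper bars, Tweedle genes in blue and other genes in grey) and H3K4me3 summits of the 4 replicates (points, larger with a higher score percentile in their own library) around 4 groups of Tweedle genes, by distance in kb from the first gene of each. No point falls on or between the members of any group. The border points differ between replicates at scrib (absent in replicate 1), at Yif1 (absent in replicate 2) and in or near gb (absent in replicate 1). Single points are added by replicate 2 beyond TwdlT and by replicate 4 on both sides of TwdlX to Twdlalpha.

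The small clusters held no summit either, in shorter stretches. TwdlF, TwdlG and TwdlV on 3R (4247020 to 4255833), with CG14644 between TwdlG and TwdlV, sat in a stretch of 79.6, 77.1, 77.4 and 77.4 kb in replicates 1 to 4. Its nearest marked genes were abs, a DEAD-box helicase gene, on the left (percentile 65.0 ± 30.5, SD, n = 4) and Vps24, an ESCRT-III subunit gene of membrane sorting, on the right (65.2 ± 11.4). The highest summits behind these values lay outside abs in replicates 1, 2 and 4 and outside Vps24 in replicate 1. The left border was close, so TwdlF lay 14.9, 13.8, 13.7 and 13.7 kb from it, and the right border was more than 50 kb away from TwdlV. Of the 5 protein-coding genes whole in the 50 kb beyond TwdlV, 0 had a summit.

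TwdlX, TwdlY, TwdlZ and Twdlalpha on the X (16731091 to 16744365) lie, with CG32568, inside the span of the larger gene goe. Their stretch was 129 kb in each of replicates 1 to 3 and 68.3 kb in replicate 4. The libraries therefore split 3 to 1, and the gap of replicate 4 was bounded by 2 weak summits of its own, in Axs and in goe, with scores of 9.76 and 10.5 at percentiles 16.1 and 17.5. The goe summit lay 7.24 kb from Twdlalpha and inside the gene that spans all 4 members. In the other replicates the nearest summits to Twdlalpha were 39.7, 39.7 and 39.8 kb away, in mRpL22, a mitochondrial ribosomal protein gene. The nearest marked genes were r, the pyrimidine synthesis gene rudimentary, on the left (percentile 55.5 ± 33.5, SD, n = 4) and if, an integrin alpha subunit gene, on the right (41.3 ± 15.5). The highest summits behind these values lay outside r and outside if in every replicate, those near if in mRpL22.

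The single Tweedle genes have close or overlapping neighbours, and each was more than 5 kb from a summit. TwdlT lies within the span of RYa-R, a neuropeptide receptor gene, and 52.8 kb from TwdlC, and both share a stretch of 184, 126, 146 and 145 kb in replicates 1 to 4. That stretch holds 22 protein-coding genes in the combined lists, among them the cuticle protein genes Cpr97Ea and Cpr97Eb. Only genes close to its borders could be called, and of its other 20 genes 0 were marked. Its right border moved with the library. Replicate 2 had a summit at percentile 3.00 beyond TwdlT, replicate 3 reached CG5815, replicate 4 reached gb and replicate 1 ran on to CG6051. The gene gb was marked by replicates 2 to 4, each with its highest summit just beyond the gene. TwdlE on 2L overlaps lectin-28C by 2164 bp and lay 25135, 24470, 24316 and 24987 bp from its nearest summits. Twdlbeta on 2R is 1335 bp from Mgtor, a nuclear pore protein gene marked in 4 replicates, but the Mgtor summits are at the far end of that gene and lay 9.52, 9.81, 9.76 and 9.62 kb from Twdlbeta. TwdlW on 3R was the Tweedle gene nearest to a summit, at 6.46, 6.93, 6.77 and 6.80 kb, in m-cup. The gap on its other side reached 52.7 kb to cal1, a centromere assembly gene.

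The other structural genes of the cuticle were compared next. Of 96 cuticle protein genes named by symbol (the Cpr, Lcp, Ccp84, Pcp, Edg, Acp65A, Cpap and Cpf groups) 3 were marked and 6 had a summit in any replicate, beside backgrounds of 43.9% and 50.1%. By library, 2, 3, 4 and 4 of the 96 had a summit, a mean of 3.39% ± 0.997 (SD, n = 4). The strongest of the 3 was Lcp9, whose summits lie inside the neighbouring CG3594 (percentile 90.5 ± 5.42). Cpr66Cb was called through summits inside Pex2, a peroxisome gene (11.1 ± 14.9, with 0 for a library without a summit). Of the 3 marked genes, only Cpr57A held these summits inside itself, where it overlaps Obp57d, and they were weak (4.76 ± 5.84). Cpr47Eg, Cpr60D and Cpr73D had a summit within 1 kb of an end in 1 replicate each. Cpr73D, 18590 bp long, also held a summit more than 1 kb from its ends. Counted over the whole gene span and 1 kb around it, 4 of the 96 were marked, beside a background of 44.9%.

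The median distance of these cuticle protein genes to a summit was 16.6 kb, beside 67.5 kb for the Osiris and Tweedle genes, and 38 of 96 lay more than 20 kb from any summit, compared with 35 of the 50 Osiris and Tweedle genes and 18.8% of all protein-coding genes. More than 50 kb away were 0 of the 96, 27 of the 50 and 8.02% of all. These distances are not independent between genes, since 22 of the 50 values come from 1 cluster and 12 from another, so no test was made of them.

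**Figure D4:**
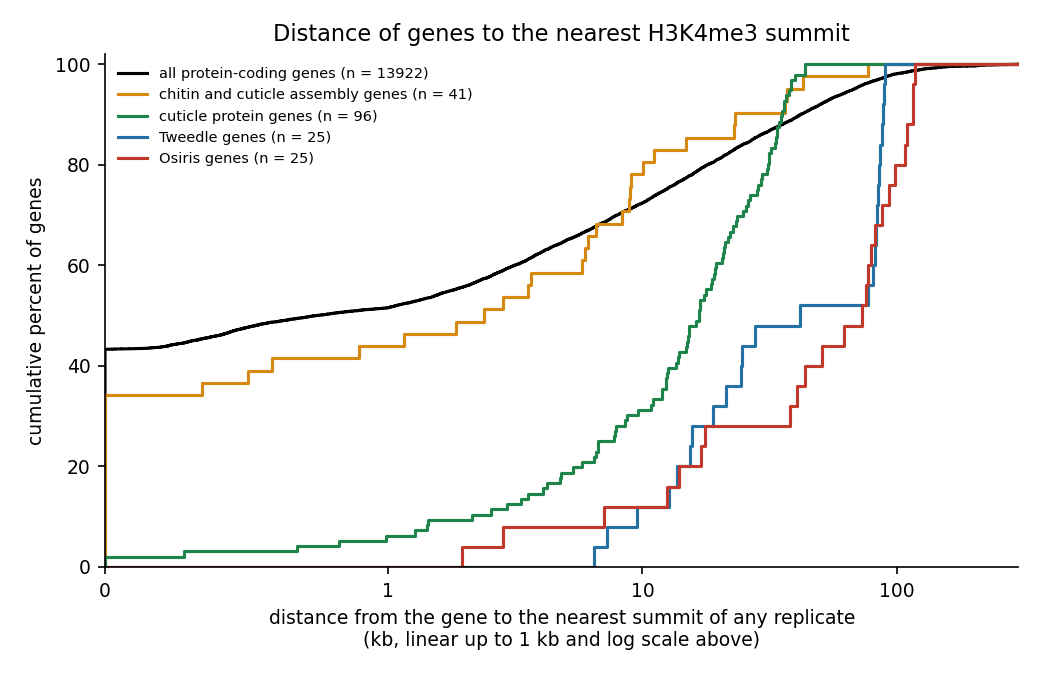
Cumulative percent of genes within a given distance in kb (linear up to 1 kb, log scale above) of the nearest summit of any replicate, for all 13922 protein-coding genes, 41 genes of chitin and cuticle assembly, 96 cuticle protein genes, 25 Tweedle genes and 25 Osiris genes. The Osiris and Tweedle curves stay at 0 beyond 1 kb and rise late, with medians of 73.2 and 41.6 kb against 16.6 kb for cuticle protein genes, 2.38 kb for assembly genes and 749 bp for all genes.

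Genes for enzymes and regulators of cuticle formation were marked in the same libraries at a share below the background. A list of 42 genes was picked for textbook roles, with earlier results of these data known, and 41 were matched (dp was not). Of these 41, 8 (19.5%) were marked, beside the background of 43.9%. Another 7 had a summit within 1 kb of an end in 1 or 2 replicates, and 26 had none there. Only 3 of the 8 marked genes had summits inside their own span in at least 3 replicates. By library, 7, 10, 8 and 14 of the 41 had a summit, a mean of 23.8% ± 7.55 (SD, n = 4). The difference between this list and the 50 Osiris and Tweedle genes was not tested.

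Precursor synthesis held 3 of the 8 marked genes. Gfat2, for the first step of the hexosamine pathway, stood at percentile 96.9 ± 3.51 (SD, n = 4, as for the values that follow), with its strongest summits inside the neighbouring Moca-cyp. The summits inside Gfat2 itself stood lower, at percentiles 39.3, 44.0, 32.6 and 65.7 in replicates 1 to 4. The mutase gene nst reached 64.2 ± 41.2, mostly through summits in eIF2beta, and stood at percentile 2.82 in replicate 3. The pyrophosphorylase gene mmy, which makes the direct precursor of chitin, reached 60.4 ± 30.1 with summits inside the gene. Gnpnat had a weak summit in replicate 4 and Gfat1 had none, so 1 of the 2 genes for the first step was marked and the other was not.

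Among the chitin synthases and their partners, kkv, the epidermal chitin synthase, had weak summits in replicates 2 and 4 (percentiles 12.1 and 13.4) and Chs2 of the gut had none. The partner gene reb was marked through summits in MCPH1 (31.8 ± 25.2), and exp had weak summits in 2 replicates. Of 12 genes of chitin organisation and turnover, 2 were marked, the chitinase gene Cht2 through CG8001 (60.4 ± 14.1) and rtv through Dlic (13.1 ± 9.83). Gasp and the chitin deacetylase gene verm had a summit in 1 replicate each, and knk, serp, obst-A, Cda4, Cda5, Cht5, Cht7 and Cht10 had none within 1 kb of an end. Cda5 held a summit deeper in the gene in replicate 2 (percentile 16.1). In both groups the highest summits of the marked genes lie inside a neighbouring gene, and reb also held a weak summit of its own in replicate 4 (percentile 7.81).

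Of the 7 matched zona pellucida domain genes, which shape the apical matrix, 0 were marked, with a summit of pio in replicate 4 only and none within 1 kb of an end for dyl, nyo, neo, mey, tyn and m. The 60.3 kb long tyn held summits deeper in the gene in replicates 3 and 4 (percentiles 17.1 and 18.01). Of 8 tanning genes 1 was marked, Pu, which makes the cofactor for tyrosine hydroxylation, through summits in tud (52.2 ± 16.3). The laccase gene stw had summits in replicates 3 and 4 at percentiles 1.08 and 11.3, and ple, Ddc, e, y, b and t had none. Of 5 transcription factor genes, ftz-f1, which times cuticle genes after ecdysone pulses, was marked by summits inside the gene (28.9 ± 21.5), and ovo, grh, Blimp-1 and Hr3 had none within 1 kb of an end, although grh held a weak summit deeper in the gene in replicate 3 (percentile 3.78). Only Gfat2, mmy and ftz-f1 had a summit inside their own span in at least 3 replicates.

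**Figure D5:**
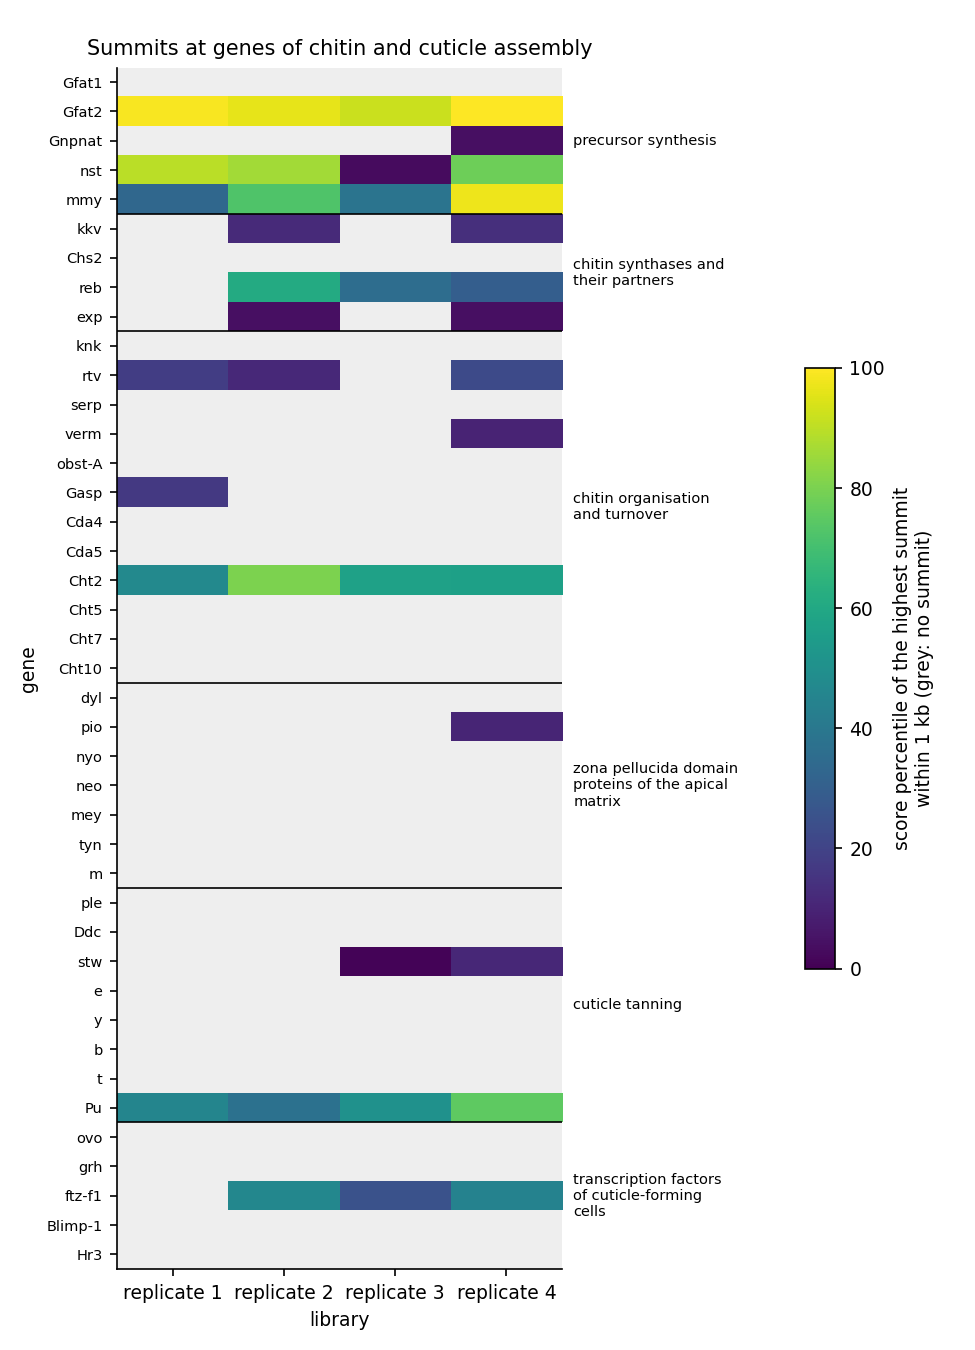
Score percentile within its own library (colour, 0 to 100) of the highest summit within 1 kb of an end of each of 41 genes of chitin and cuticle assembly, by replicate, with grey for no summit there and lines between the 6 groups. Gfat2 is high in all 4 replicates through summits inside the neighbouring Moca-cyp. Of the 41 rows, 15 hold a coloured cell and 26 are grey throughout.

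Markers of the larval tissues were looked up in the same way. Of 8 marker genes of epidermis and trachea (grh, kkv, knk, serp, verm, Gasp, btl and trh) 0 were marked, beside the background of 43.9%, with a summit of kkv in 2 replicates and of verm and Gasp in 1 each. In addition, grh in replicate 3 and trh in replicates 3 and 4 (the higher at percentile 6.55) held summits more than 1 kb from their ends. Of 9 markers of fat body, midgut, muscle and neurons 2 were marked, beside the same background, Lsp2 of the fat body (percentile 49.4 ± 33.9, SD, n = 4) and Jon65Ai of the midgut (50.03 ± 35.6). All their summits lay outside the gene, the closest at 445 bp from Lsp2 and 881 bp from Jon65Ai. The other markers of these 2 tissues, Lsp1alpha and Fbp1 of the fat body and alphaTry of the midgut, had no summit within 1 kb in any replicate. Neither had Mhc and Act57B of muscle nor nSyb of neurons. The neuronal gene elav had summits in replicates 3 and 4 (percentiles 18.1 and 21.5). The part of tissue composition in the counts for Osiris and Tweedle genes was not tested.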

How the data were processed

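H3K4me3 ChIP-seq summits of 4 fly libraries were used, 1 list per replicate. The submitters' processing notes list MACS2, BWA 0.7.17, Picard 2.17.11, cutadapt 1.16, SAMtools 1.9 and FastQC 0.11.7. Settings, genome build and use of the inputs were not given in the sources used here. The score that the authors deposited per summit is a −log10 of a p-value or of a q-value, and which of them was not stated. Scores are not scaled between libraries, so they were turned into percentiles within a library, with 0 for a library without a summit. The lists held 3518 to 5313 summits with median scores of 5.97 to 24.7, and the read depth is unknown.

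Gene positions came from a RefSeq gene table (Release 6 plus ISO1 MT) without strand, transcripts or sequence. As a check of the build, gene ends of the own arm were within 500 bp for 47.0% to 88.5% of summits, and gene ends of another arm for at most 20.7%. Summits were written 1-based, and 1 summit off the 6 arms was left out. Distances run from the summit to the nearer end of a gene, or are 0 inside it.

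The named genes are all Osiris and Tweedle genes, the genes holding the summits next to them, the nearest marked gene on each side, the genes between members of a cluster, all listed assembly genes and the cuticle protein genes with a summit. Other genes were named after their values were seen. Members and lists were chosen with earlier results of these data known. There is 1 condition, so no test was made. Alternatives were other windows, summits inside the gene or over its whole span, a minimum score of 5, lists cut to equal length, other numbers of replicates, each replicate left out, other cluster distances and joined regions. The steps were tested on simulated summits. Computation used pandas 2.3.3 and numpy 2.4.6 in Python 3.11.15, and plots used matplotlib 3.10.9.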

Additional observations from a re-analysis of the deposited data

Results flagged for a closer look

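In 25 sets of 4 replicate values, 6 had 1 replicate set apart from the others. Its distance to the nearest of them, as a share of the range, exceeded Dixon's 95% critical value for 4 samples. Chance gives about 1 in 20 for independent sets. These sets are not independent, since TwdlQ repeats the values of TwdlM to TwdlD. Around Osi1 to Osi20 the summit-free stretch of replicate 1 was 245 kb, where the others had 336 to 337 kb. Around Osi21 replicate 4 had 203 kb, where the others had 216 to 217 kb, with its own weak summit in sala at percentile 10.7. Around TwdlF to TwdlV replicate 1 had 79.6 kb, where the others had 77.1 to 77.4 kb. Around TwdlM to TwdlD, and around TwdlQ in the same stretch, replicate 1 had 266 kb, where the others had 182 to 188 kb. Around TwdlX to Twdlalpha replicate 4 had 68.3 kb, where the others had 129 kb. Replicate 1 has the fewest summits (3518) and replicate 4 the most (5313), and the part of list length in these differences was not tested.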

How the results depend on the processing

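Of the Tweedle genes 0 were marked under all 15 alternatives, and of the Osiris genes 0 under 14 of 15, the exception being a window of 5 kb with 2 (Osi21 and Osi20). Members with a summit in any replicate numbered 0 under 10 of 12 alternatives, 1 at 2 kb and 2 at 5 kb. Summits inside the clusters numbered 0 under all 11. The Osiris stretch was 337 kb with scores of at least 5 and with regions of at least 3 replicates joined at 100, 250 or 500 bp, since these drop the single Gasp summit, and 244 to 336 kb with a replicate left out. The Tweedle stretch was 265 kb with equal numbers of summits. Cutting every list to its 3518 highest summits leaves out the scrib summits of replicates 2 to 4, at percentiles 21.5, 11.3 and 29.7. Marked cuticle protein genes numbered 0 at 250 bp, 6 at 2 kb, 12 at 5 kb, 1 inside the gene, 1 with scores of at least 5, 1 with equal numbers, 1 with all 4 replicates and 6 with at least 1. Marked assembly genes numbered 2 at 250 bp, 3 at 500 bp, 13 at 2 kb, 18 at 5 kb, 3 inside the gene, 5 with equal numbers, 5 with all 4 replicates and 15 with at least 1. The background was 18.9% at 250 bp, 36.1% at 500 bp, 59.4% at 5 kb, 31.1% inside the gene, 36.6% with equal numbers, 33.7% with all 4 replicates and 50.1% with at least 1. A window around starts alone was not run, as the gene table has no strand. No paired analysis was possible because the summit lists used are those of 1 group, and the fly input libraries that share its replicate numbers were not analysed here. Read depth is unknown, so a weak peak missed by the caller and an absent one cannot be told apart.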
